A study of Rattus norvegicus with 70 samples.

Results

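Brown adipose tissue (BAT) of female rats was compared between animals that had inhaled PCB 52 and sham animals. The libraries were the 12 of 70 in the series that came from BAT of the even-numbered rats, all labelled female, with 6 from PCB 52 rats (numbers 14 to 24) and 6 from sham rats (numbers 2 to 12). PCB 52 is a lower-chlorinated member of the polychlorinated biphenyls (PCBs), persistent industrial chemicals that are found in indoor air. The study asked how breathing it alters gene expression in the fat of adolescent rats.

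All 12 animals were female Sprague-Dawley rats, an outbred stock, that came to the laboratory at 28 days of age. They were randomised to PCB 52 or sham at 42 days of age. PCB 52 rats breathed filtered air that had passed over PCB 52-coated beads at 12 L/min, through the nose only, for 4 hours a day over 28 days, and sham is the label of the control rats, whose own exposure is not described further. RNA was taken from about 100 mg of each tissue piece, and preparations with an RNA integrity number under 8 had been left out by the submitters. Each library carries the number of a single rat, so the replicates are read as separate animals. Library totals ran from 4916430 to 7124557 counts in PCB 52 and from 4991736 to 6115021 in sham.

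BAT burns fatty acids to make heat. Noradrenaline from sympathetic nerves acts on beta-adrenergic receptors, lipolysis releases fatty acids, and the uncoupling protein UCP1 lets the mitochondrial proton gradient run down as heat. Thyroid hormone, made active in the tissue by the deiodinase DIO2, and the coactivator PGC-1alpha raise this programme. Glucocorticoids, the adrenal steroid hormones, act through the receptor encoded by Nr3c1, which binds DNA and switches on a small set of genes in most tissues.

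The labelled tissue was checked against its defining markers, as counts scaled to library size (CPM) and summed over each marker list. The brown adipocyte markers summed to between 635 and 16727 CPM (median 12423) in PCB 52 and to between 7577 and 20493 CPM (median 12372) in sham. A single library stood apart: rat 24 of the PCB 52 group had 635 CPM of brown markers, against 10822 to 16727 CPM in the other 5 PCB 52 libraries. Its muscle markers summed to 64468 CPM, the highest of the 12, and its macrophage markers to 3873 CPM, also the highest. Elovl3, a fatty acid elongase that marks cold-activated BAT in mice, was at or near 0 in all 12 libraries (0 to 0.374 CPM in PCB 52 and 0 in every sham library). The sham library of rat 4 had the lowest brown marker sum of its group (7577 CPM) and the highest white adipocyte marker sum of all 12 (8009 CPM). Muscle markers varied widely within both groups, from 633 to 64468 CPM in PCB 52 and from 364 to 36800 CPM in sham. In whole tissue, fewer cells of a type and less RNA per cell cannot be told apart. Several lists and genes in which rat 24 stood apart are therefore given with and without it. A value printed only for all 12 libraries may rest in part on it.

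**Figure D1:**
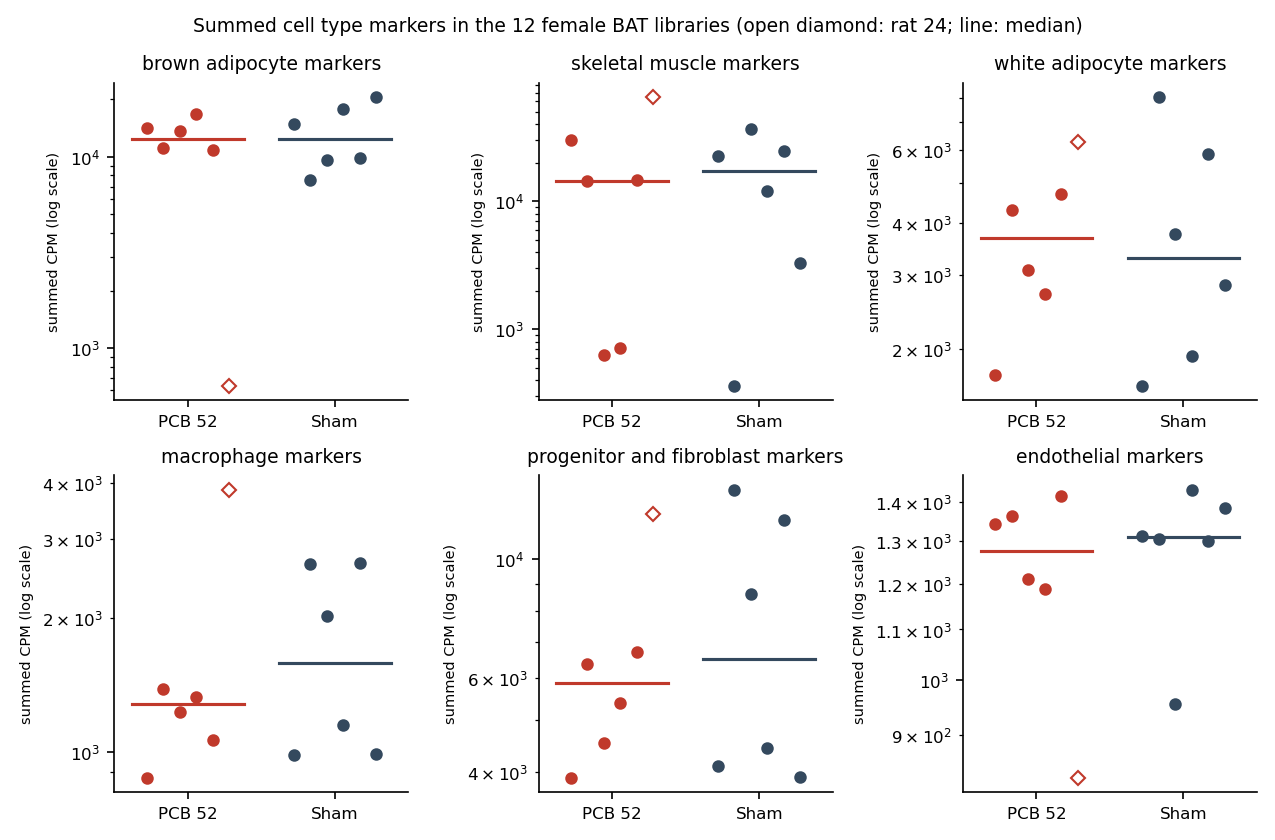
Summed CPM (log scale) of the members of 6 cell type marker lists in each library, PCB 52 on the left and sham on the right, with a line at the group median and an open diamond for rat 24. Rat 24 lies below the other 11 libraries in brown adipocyte markers (635 CPM) and above them in muscle markers (64468 CPM) and macrophage markers (3873 CPM).

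No gene passed an adjusted p of 0.05 between PCB 52 and sham. Of 10686 genes tested with edgeR's quasi-likelihood test, 0 passed after Benjamini-Hochberg adjustment (0.0% of those tested) and the lowest adjusted p was 0.999. DESeq2 and limma voom with quality weights also called 0. At an unadjusted p under 0.05 edgeR had 388 genes (3.63%), of which 156 were higher (1.46%) and 232 lower (2.17%) in PCB 52, while DESeq2 had 424 and limma voom 652. By chance alone 534 genes would be expected at that threshold, and 535 in the fit without rat 24. Without rat 24 the fit tested 10703 genes and had 592 at that threshold (5.53%), 244 higher (2.28%) and 348 lower (3.25%), still with 0 after adjustment, and without rat 22 there were 249. The median log2 fold change of all genes, PCB 52 over sham, was -0.01 with rat 24 and -0.02 without it. The 2 groups did not overlap for 7 genes that were higher in PCB 52 (0.0655% of those tested) and for 13 that were lower (0.122%). The genes below are therefore described by their values. Every tested gene named had an adjusted p of 0.999 in the edgeR fit of the 12 libraries, each standard error (SE) is that of the log2 fold change in that fit, and a p under 0.05 beside a list is unadjusted.

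The smallest p among genes lower in PCB 52 belonged to Errfi1, a feedback inhibitor of the EGF receptor that glucocorticoids induce. Errfi1 ranged from 33.5 to 60.4 CPM (median 44.0) in PCB 52 and from 59.2 to 199 CPM (median 92.0) in sham. The groups met only at the edge, with 5 of 6 PCB 52 libraries below every sham library, and the log2 fold change was -1.27 (SE 0.26). DESeq2 gave Errfi1 the lowest adjusted p of any gene in its fit, 0.0629, with a log2 fold change of -1.26.

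Among the genes whose groups did not overlap, a calcium channel and a receptor of vessels had the lower PCB 52 levels. Trpv4, a cation channel opened by warmth, stretch and osmotic change that restrains thermogenic genes in mouse adipocytes, ran from 7.67 to 11.6 CPM (median 10.4) in PCB 52 and from 12.3 to 26.9 CPM (median 19.9) in sham, with a log2 difference of -0.95 (SE 0.20). Ednrb, the endothelin B receptor, ran from 17.9 to 64.8 CPM (median 49.6) in PCB 52 and from 69.4 to 172 CPM (median 102) in sham, with a log2 difference of -1.26 (SE 0.31). The lowest Ednrb value was that of rat 24, and without it the log2 fold change was -1.09 (SE 0.25). The other 10 members of the list of TRP and calcium entry channels had no p under 0.05.

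Further genes without overlap had narrow ranges. Plekhf1, a phosphoinositide-binding protein of endosomes and lysosomes, ran from 25.8 to 33.6 CPM (median 29.4) in PCB 52 and from 36.2 to 43.7 CPM (median 40.7) in sham, with a log2 fold change of -0.43 (SE 0.09). Fermt3, the integrin activator of blood cells, ran from 30.5 to 48.1 CPM (median 40.4) in PCB 52 and from 48.5 to 65.6 CPM (median 56.6) in sham, with a log2 fold change of -0.51 (SE 0.12). Both sets of groups are close neighbours: the highest PCB 52 value of Fermt3, that of rat 24, lies just under the lowest sham value. Eif4ebp3, a repressor of cap-dependent translation, had a log2 fold change of -0.74 (SE 0.18), and Agap2, a GTPase-activating protein of Arf GTPases, of -0.65 (SE 0.17). Zwint, a kinetochore protein, was at 70.0 to 79.9 CPM in PCB 52 and 83.2 to 95.4 CPM in sham.

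Among genes higher in PCB 52, Gypc, which anchors the actin skeleton to the cell membrane, had the smallest p. Gypc ran from 36.5 to 47.3 CPM (median 38) in PCB 52 and from 27.8 to 32.4 CPM (median 30.4) in sham, without overlap, with a log2 difference of 0.42 (SE 0.09). Snx12, an endosomal sorting nexin, also had no overlap, at 15.7 to 21.5 CPM (median 18.9) in PCB 52 and 13.8 to 15.6 CPM (median 14.2) in sham. Its log2 fold change was 0.40 (SE 0.10). The methyltransferase gene Mettl4, the ubiquitin ligase gene Herc2 and Tyms, which makes thymidylate for DNA synthesis, likewise had no overlap, with log2 fold changes of 0.48 (SE 0.16), 0.20 (SE 0.07) and 0.25 (SE 0.10) in that order. For 3 more genes, 5 of 6 PCB 52 libraries were above every sham library. They were Cask, a membrane scaffold (0.51, SE 0.14), Acvr2a, an activin receptor (0.49, SE 0.14), and Glcci1, first described as a glucocorticoid-induced transcript (0.36, SE 0.10), all as log2 fold changes.

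RT1-A2, a rat class I histocompatibility gene, ran from 18.1 to 91.5 CPM (median 54.3) in PCB 52 and from 17.8 to 29.9 CPM (median 21.9) in sham, with a log2 difference of 1.17 (SE 0.34). It lies in a family of near-identical, highly variable genes, so how the counting divided its reads in an outbred stock is uncertain.

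Genes that glucocorticoids induce had lower levels in PCB 52 than in sham for most members of their list. Of 21 members tested, 19 had a log2 fold change below 0 and 2 above it, with a median of -0.45, against -0.01 for all genes. An unadjusted p under 0.05 was reached by 7 members, all lower (33.3% of the list, against 2.17% of all genes), and after adjustment by 0. Without rat 24, 20 of 21 were below 0, the median was -0.35, and 6 had such a p. The list median stayed between -0.54 and -0.32 over the 18 alternative fits. Earlier analysis of these data had already shown that the list is lower in this tissue, so the counts are not independent evidence of its direction.

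Per library, the mean log2(CPM + 1) of the 21 genes, set against the sham mean, was -0.41 in rat 14, -0.49 in rat 16, -0.29 in rat 18, -0.42 in rat 20, -0.65 in rat 22 and -0.68 in rat 24. In sham it was -0.29 in rat 2, 0.25 in rat 4, -0.14 in rat 6, -0.27 in rat 8, 0.24 in rat 10 and 0.21 in rat 12. The PCB 52 libraries lie together at the low end, while the sham libraries are spread, with rats 2 and 8 close to PCB 52 rat 18. Rats 4 and 10 also had the highest macrophage marker sums of the sham group and rat 12 did not. The part of those cells in the result was not tested.

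Tsc22d3, which encodes the anti-inflammatory leucine zipper protein GILZ, ran from 86.2 to 152 CPM (median 111) in PCB 52 and from 135 to 256 CPM (median 205) in sham. Of the PCB 52 libraries 4 lay below every sham library, and the log2 fold change was -0.76 (SE 0.19). Fkbp5, the cochaperone that dampens glucocorticoid receptor signalling and is itself induced by it, ran from 22.2 to 60.6 CPM (median 39.6) in PCB 52 and from 40.3 to 207 CPM (median 74.2) in sham. Rat 4 alone set the sham maximum of Fkbp5, the next sham value being 94.6 CPM, and the log2 fold change was -1.12 (SE 0.37), but -0.68 without sham rat 4.

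Cebpd, a transcription factor of the first wave of fat cell differentiation, ran from 11.5 to 27.1 CPM (median 18.6) in PCB 52 and from 18.6 to 52.5 CPM (median 34.9) in sham, with a log2 difference of -0.91 (SE 0.25). Dusp1, the phosphatase that switches off MAP kinases, ran from 100.3 to 239 CPM (median 168) in PCB 52 and from 215 to 426 CPM (median 255) in sham, with a log2 difference of -0.78 (SE 0.23). For Dusp1 only rat 20 reached into the sham range. Zbtb16, a zinc finger transcription factor, had a log2 fold change of -1.26 (SE 0.42) with a sham maximum of 110 CPM in rat 4, and -0.77 without that rat. Ddit4, an inhibitor of mTOR complex 1, had -0.67 (SE 0.30), but -0.30 in the limma voom fit and -0.48 without sham rat 4. Per1 and Klf9, which are also glucocorticoid targets, had log2 fold changes of -0.45 (SE 0.22) and -0.41 (SE 0.20).

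**Figure D2:**
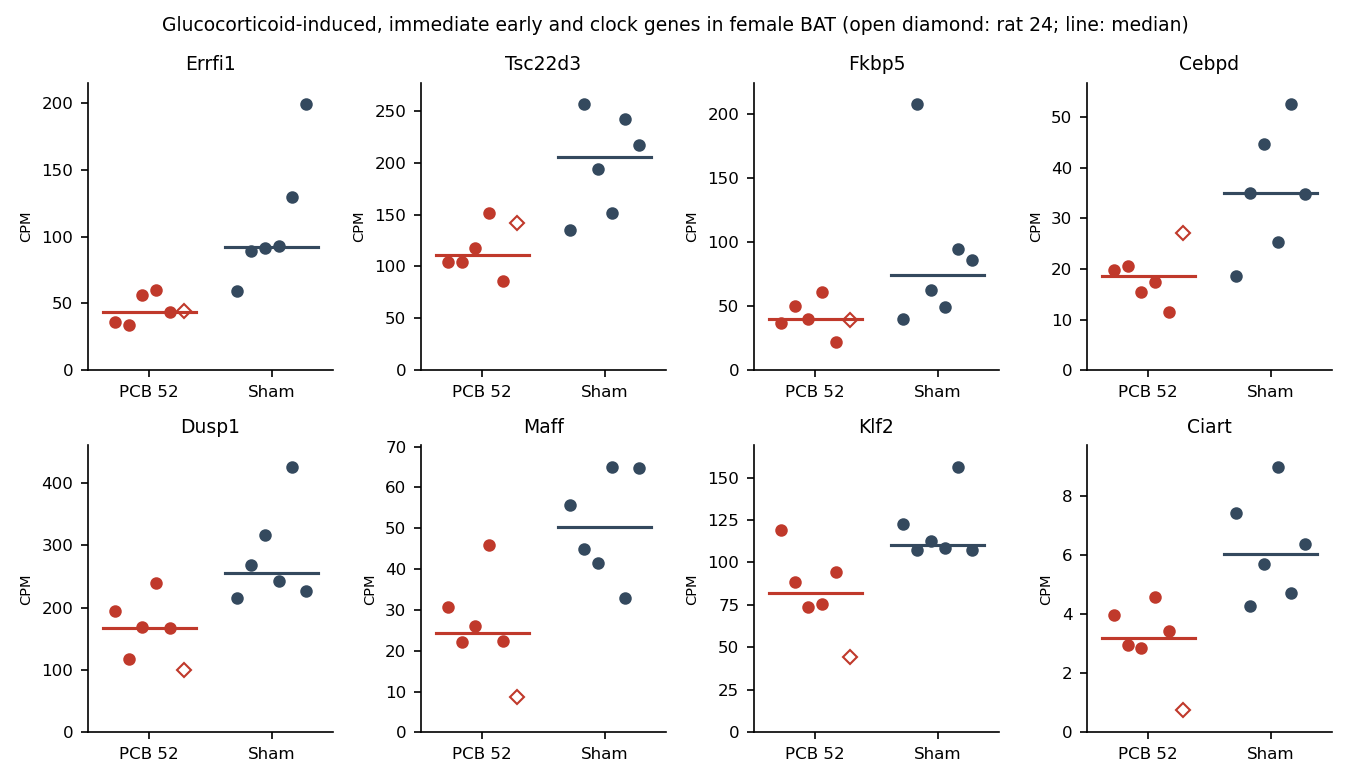
CPM of 8 genes in each library, PCB 52 on the left and sham on the right, with a line at the group median and an open diamond for rat 24. Errfi1, Dusp1, Maff, Klf2 and Ciart have 5 of 6 PCB 52 libraries below every sham library, and Fkbp5 has a sham library far above the rest at 207 CPM.

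The receptor and the enzymes that supply the hormone were measured in the same libraries. Nr3c1, the glucocorticoid receptor, ran from 150 to 253 CPM (median 172) in PCB 52 and from 136 to 164 CPM (median 144) in sham, with a log2 difference of 0.35 (SE 0.13). Of the PCB 52 libraries 4 were above every sham library, the highest being rat 24, and without it the log2 fold change was 0.24 (SE 0.10). Hsd11b1, which regenerates active glucocorticoid inside cells, was at 12.2 to 22 CPM (median 19.1) in PCB 52 and 16 to 30.1 CPM (median 21.4) in sham, with a log2 difference of -0.28 (SE 0.17). The 7 other tested members of the list had no p under 0.05.

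Immediate early genes, which switch on within minutes of a stimulus, also had lower levels in PCB 52 for most members. Of 25 tested, 20 were below 0 and 5 above, with a median log2 fold change of -0.27, and 6 had an unadjusted p under 0.05, all lower (24.0% of the list, against 2.17% of all genes). Without rat 24, 22 of 25 were below 0 with a median of -0.25. This list, too, was known from earlier analysis of these data to be lower here. The list shares no gene with the hormone-induced list.

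Maff, a small Maf transcription factor, ran from 8.78 to 45.9 CPM (median 24.2) in PCB 52 and from 32.8 to 65.1 CPM (median 50.3) in sham, with a log2 difference of -0.97 (SE 0.31). Klf2, a Kruppel-like factor that blood flow induces in endothelium, ran from 44.2 to 119 CPM (median 82.1) in PCB 52 and from 107 to 157 CPM (median 110) in sham, with a log2 difference of -0.53 (SE 0.20). In both genes 5 PCB 52 libraries lay below every sham library and rat 24 was the lowest. The AP-1 subunits Jund and Fosl2 had log2 fold changes of -0.41 (SE 0.13) and -0.57 (SE 0.23). The stress sensor Gadd45b had -0.52 (SE 0.23) and Zfp36, which speeds the decay of cytokine mRNAs, -0.49 (SE 0.22). The highest immediate early mean of the PCB 52 group was that of rat 20, at 0.17 above the sham mean of log2(CPM + 1), against -0.63 to -0.28 in the other 5.

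The circadian clock list had 11 of 15 members below 0 with a median of -0.14, and 1 with an unadjusted p under 0.05, which was lower (6.67% of the list, against 2.17% of all genes). That gene was Ciart, a repressor of the clock, at 0.764 to 4.57 CPM (median 3.19) in PCB 52 and 4.29 to 9.0 CPM (median 6.04) in sham. The groups overlapped in a single PCB 52 library, that of rat 20. The log2 fold change was -1.03 (SE 0.34), or -0.80 without rat 24, the lowest library. The time of day of tissue collection is not given in the sources used here.

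The hormone receptor, the cAMP pathway and the clock each have a known DNA motif. Promoters of 4 genes of these lists that held a match to such a motif are shown. They are RefSeq sequences on the rat build GRCr8, each with 250 bases before and 50 after an annotated start, read 5′ to 3′ on the gene's strand. Capitals mark the core of the glucocorticoid response element (ACANNNTGT), the cAMP response element (TGACGTCA) and the E-box of clock factors (CACGTG). Each reads the same on both strands, and none of the matches printed overlap.
Tsc22d3, the start of 3 that holds a match, chrX:109065381-109065680, minus strand: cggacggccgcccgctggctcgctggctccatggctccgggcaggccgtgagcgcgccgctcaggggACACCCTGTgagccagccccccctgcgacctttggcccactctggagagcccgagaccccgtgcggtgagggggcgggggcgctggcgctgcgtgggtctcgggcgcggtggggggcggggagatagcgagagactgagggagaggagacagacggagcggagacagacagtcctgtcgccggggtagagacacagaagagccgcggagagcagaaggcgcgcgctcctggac
Dusp1, chr10:17184603-17184902, plus strand: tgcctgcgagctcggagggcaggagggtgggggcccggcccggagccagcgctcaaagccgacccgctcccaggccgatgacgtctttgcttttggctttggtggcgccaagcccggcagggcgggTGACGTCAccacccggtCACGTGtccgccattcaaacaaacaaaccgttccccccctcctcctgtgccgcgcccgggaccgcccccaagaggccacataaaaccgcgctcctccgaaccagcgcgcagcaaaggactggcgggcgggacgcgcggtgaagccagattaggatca
Maff, chr7:112792537-112792836, plus strand: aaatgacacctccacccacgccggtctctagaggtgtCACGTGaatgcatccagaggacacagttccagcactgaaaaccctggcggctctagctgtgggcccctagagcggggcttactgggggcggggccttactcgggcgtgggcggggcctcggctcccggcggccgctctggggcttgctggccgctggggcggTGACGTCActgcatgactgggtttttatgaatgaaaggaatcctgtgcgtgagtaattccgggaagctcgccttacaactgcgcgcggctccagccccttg
Ciart, chr2:186112197-186112496, minus strand: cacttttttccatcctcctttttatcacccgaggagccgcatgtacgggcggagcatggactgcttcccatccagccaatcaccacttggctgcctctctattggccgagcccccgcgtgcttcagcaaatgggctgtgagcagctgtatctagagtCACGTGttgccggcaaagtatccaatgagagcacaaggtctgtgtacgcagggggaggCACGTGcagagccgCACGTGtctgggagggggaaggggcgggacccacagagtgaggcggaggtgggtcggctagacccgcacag

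The Tsc22d3 promoter held 1 glucocorticoid element core, those of Dusp1 and Maff held 1 cAMP element and 1 E-box each, and that of Ciart held 3 E-boxes. Of 22 members of the hormone-induced list 19 matched the promoter table by symbol, with 24 promoters, and 2 of these (8.33%) held the glucocorticoid core, against 6.86% of all 33469 promoters. The cAMP element was in 4 of 17 immediate early promoters (23.5%, those of Btg2, Ier2, Jund and Maff), in 1 of the 24 hormone-induced promoters (4.17%, that of Dusp1) and in 1.83% of all promoters. The E-box was in 5 of 18 clock promoters (27.8%), in 4 hormone-induced ones (16.7%), in 3 immediate early ones (17.6%) and in 6.42% of all. The glucocorticoid core was in 3 clock promoters (16.7%) and in 0 immediate early ones, and the cAMP element in 0 clock promoters. The windows of Errfi1, Fkbp5, Ddit4, Per1, Klf9, Zfp36 and Fosl2 held none of these letters.

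Genes of fat and sterol synthesis included several with higher levels in PCB 52. Pnpla3, a lipase and acyltransferase of lipid droplets that feeding and the transcription factor SREBP-1c induce, ran from 85.1 to 202 CPM (median 128) in PCB 52 and from 49.8 to 90.2 CPM (median 66.0) in sham. All but 1 of the PCB 52 libraries exceeded every sham library, and the log2 fold change was 0.99 (SE 0.22). Srebf1, which encodes SREBP-1c, ran from 212 to 571 CPM (median 386) in PCB 52 and from 134 to 414 CPM (median 268) in sham, with a log2 difference of 0.54 (SE 0.30). The fatty acid synthesis list as a whole had 14 of 21 members above 0 at a median of 0.05, and Pnpla3 was its only member with a p under 0.05. Thrsp, a regulator of fat synthesis, was at 2860 to 8344 CPM (median 7699) in PCB 52 and 5085 to 9649 CPM (median 6521) in sham, with groups that overlapped widely.

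Dgat2, which completes triglyceride synthesis, ran from 1374 to 2757 CPM (median 2119) in PCB 52 and from 1131 to 1855 CPM (median 1250) in sham. Its log2 fold change was 0.63 (SE 0.20), and 0.73 (SE 0.17) without rat 24, whose value was the lowest PCB 52 one. Acsl5, which activates long-chain fatty acids, pointed the other way, with 84.5 to 738 CPM (median 464) in PCB 52 and 446 to 1318 CPM (median 895) in sham. All 6 PCB 52 libraries were under the sham median of Acsl5, with a log2 difference of -0.91 (SE 0.44), or -0.69 without rat 24. In the list of fatty acid uptake and triglyceride synthesis 7 of 20 members were above 0 with rat 24 and 12 of 20 without it.

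Cholesterol synthesis and uptake genes had 16 of 24 members above 0 at a median of 0.05, and 3 had an unadjusted p under 0.05, all higher (12.5% of the list, against 1.46% of all genes). Nsdhl, a dehydrogenase that removes methyl groups from sterols, had no overlap, at 31.7 to 37.7 CPM (median 33.2) in PCB 52 and 23.3 to 31.2 CPM (median 27.1) in sham. Its log2 fold change was 0.31 (SE 0.09). Cyp51, the sterol demethylase, had 0.27 (SE 0.11), with rat 24 the highest, and 0.18 (SE 0.09) without it.

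**Figure D3:**
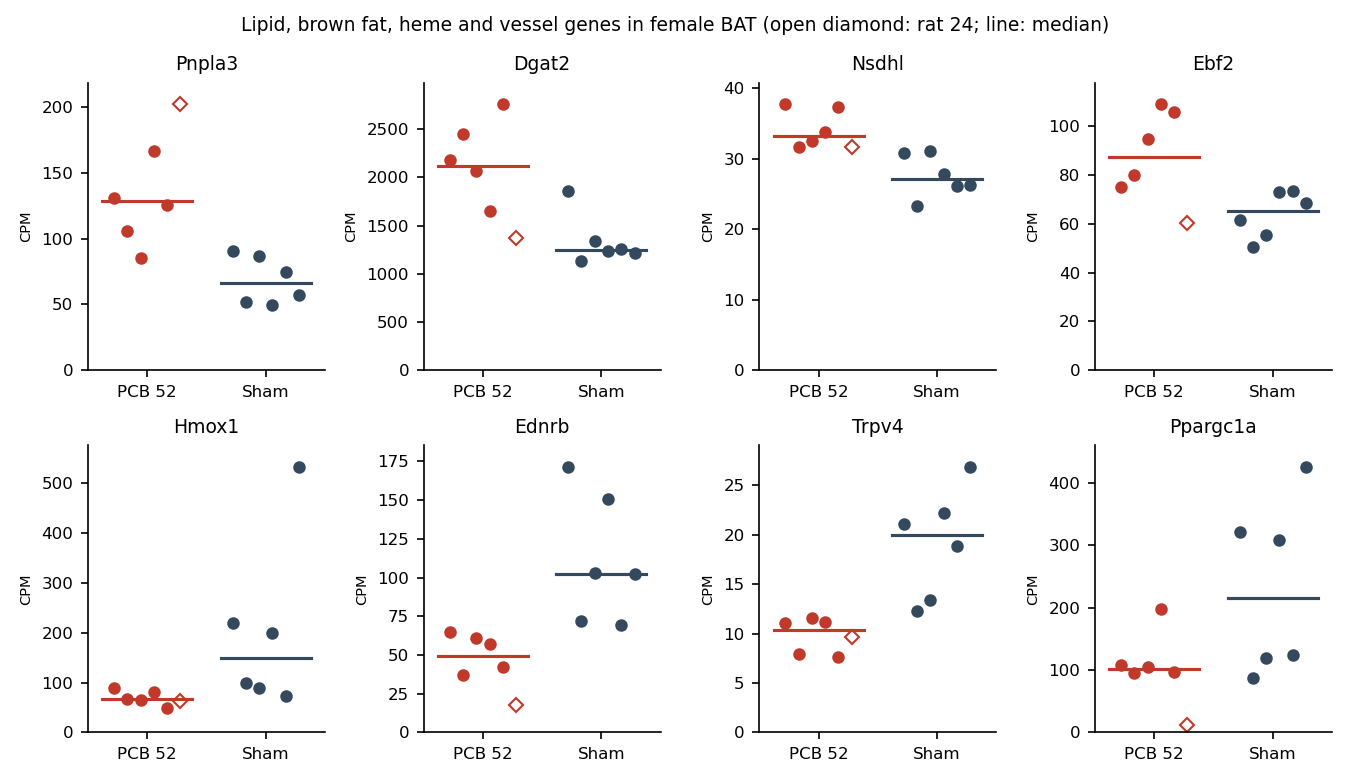
CPM of 8 genes in each library, PCB 52 on the left and sham on the right, with a line at the group median and an open diamond for rat 24. Nsdhl, Ednrb and Trpv4 have groups that do not overlap, and Hmox1 has a sham library at 533 CPM.

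Ucp1, the uncoupling protein that defines brown fat, did not separate the groups. It ran from 103 to 7622 CPM (median 5634) in PCB 52 and from 3273 to 10009 CPM (median 5525) in sham. Its log2 fold change was -0.30 (SE 0.64), and -0.04 (SE 0.28) without rat 24, which held the 103 CPM. Of the 15 brown adipocyte markers tested, 4 were above 0 with a median of -0.11, and 1 had an unadjusted p under 0.05, in the higher direction (6.67%, against 1.46% of all genes). Without rat 24, 7 were above 0 with a median of -0.03, and 1 higher and 1 lower marker had such a p. Cidea, a lipid droplet protein of brown fat, had a log2 fold change of 0.25 (SE 0.57), and 0.51 (SE 0.24) without rat 24. Cpt1b, which brings fatty acids into mitochondria, had -0.11 (SE 0.45), and 0.13 (SE 0.22) without rat 24.

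Regulators of heat production pointed in both directions, and none passed the adjusted test. Ppargc1a, which encodes PGC-1alpha, ran from 11.2 to 197 CPM (median 101) in PCB 52 and from 87.6 to 426 CPM (median 216) in sham. All 6 PCB 52 libraries were below the sham median, with rat 24 at the 11.2 CPM. The log2 fold change was -1.18 (SE 0.54), or -0.94 without rat 24. Dio2 ran from 11.5 to 1424 CPM (median 431) in PCB 52 and from 530 to 1533 CPM (median 1094) in sham. The 11.5 CPM was that of rat 24. Its log2 fold change was -1.0 (SE 0.70), with -0.74 when rat 24 was left out and -1.59 when rat 20 was. Adrb3, the beta-adrenergic receptor of fat, pointed upward, with 83.4 to 193 CPM (median 131) in PCB 52 and 81.4 to 137 CPM (median 109) in sham. Its log2 fold change was 0.29 (SE 0.19), and 0.40 (SE 0.15) without rat 24.

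The factors that fix brown fat identity were also mixed. Ebf2, a transcription factor of brown fat precursors, ran from 60.3 to 109 CPM (median 87.6) in PCB 52 and from 50.4 to 73.4 CPM (median 65.1) in sham. Every PCB 52 library but rat 24 exceeded all sham libraries, and the log2 fold change was 0.46 (SE 0.15), or 0.55 (SE 0.13) without rat 24. Zfp423, which restrains the brown programme in white fat cells, had 0.31 (SE 0.13), and Zfp516, a factor that binds the Ucp1 promoter in mice, had -0.45 (SE 0.18). Pparg, the master regulator of fat cells, and Adipoq, the hormone adiponectin, had 0.10 (SE 0.15) and 0.15 (SE 0.20), or 0.21 and 0.12 without rat 24. In the list of creatine and calcium cycling, the transaminase Got1 had -0.65 (SE 0.25) and Pm20d1, which makes N-acyl amino acids, 0.47 (SE 0.21).

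Nuclear-encoded respiratory chain genes and fatty acid oxidation genes changed direction without rat 24. Of 30 respiratory chain genes 4 were above 0 with it, at a median of -0.05, and 29 without it, at 0.12, none of them with an unadjusted p under 0.05 in either fit. Of 25 oxidation genes 8 were above 0 with it and 20 without it, at medians of -0.06 and 0.14. The respiratory chain and oxidation medians kept their sign in 13 and 14 of the 18 alternative fits, so other fits changed them too.

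Stress and vessel genes with lower PCB 52 levels included Hmox1, which encodes heme oxygenase 1. Hmox1 ran from 49.1 to 88.9 CPM (median 66.2) in PCB 52 and from 73.1 to 533 CPM (median 149) in sham, with a log2 difference of -1.55 (SE 0.44). The PCB 52 values are tightly grouped and the sham values are not. Sham rat 12 holds the 533 CPM, and sham rats 2 and 8 had 219 and 199 CPM. Without rat 12 the log2 fold change was -0.97. The other 21 tested members of the NRF2 and antioxidant list had no p under 0.05, and 11 of the 22 in all were below 0. Atf4, the transcription factor of the integrated stress response, ran from 170 to 278 CPM (median 235) in PCB 52 and from 238 to 371 CPM (median 321) in sham, with a log2 difference of -0.43 (SE 0.14). Cxcl14, a chemokine that active brown fat secretes in mice, ran from 119 to 315 CPM (median 217) in PCB 52 and from 221 to 584 CPM (median 362) in sham, with a log2 difference of -0.75 (SE 0.24).

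Of 19 endothelial markers 12 were below 0, at a median of -0.04, and Vwf, the clotting factor of endothelium, had a log2 fold change of -0.38 (SE 0.13). Cspg4, a pericyte marker, had 0.42 (SE 0.17), with PCB 52 at 49.9 to 61.4 CPM inside the sham range of 29.7 to 62.7 CPM. Ccn2, a matrix protein that mechanical strain induces, had -0.73 (SE 0.34), with a sham maximum of 57.4 CPM in rat 6 against 16.7 CPM in the lowest sham library, and -0.33 without rat 6.

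Marker lists of macrophages, progenitors and muscle depended in part on rat 24, while those of endothelium, smooth muscle and pericytes, and Schwann cells had medians within 0.05 of 0 with and without it. Without it, 20 of 20 macrophage markers were below 0 at a median of -0.53, 11 of 11 progenitor and fibroblast markers at -0.45, and 22 of 22 muscle markers at -0.49. With it, the medians were -0.04, -0.03 and 0.39. Over the 18 alternative fits these medians kept their sign in 10, 12 and 15 in that order, so other fits changed them too. C1qb, a complement gene of macrophages, ran from 70.5 to 316 CPM in PCB 52 and from 83.0 to 245 CPM in sham, its log2 fold change being -0.30 (SE 0.40) with rat 24 and -0.76 (SE 0.31) without it. The sham libraries of rats 4, 6 and 10 held the high macrophage sums of their group, at 2011 to 2647 CPM, while the other 3 sham libraries, at 984 to 1149 CPM, lay within the range of the 5 remaining PCB 52 libraries. T and NK cell, B cell and epithelial markers were low throughout, the B cell list summing to at most 2.51 CPM in PCB 52 and 2.22 CPM in sham.

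Interferon response genes had 20 of 23 members above 0 with rat 24 and 7 without it, and cell cycle genes 12 of 13 with it and 4 without it. Usp18, a brake on interferon signalling, was lower, with a log2 fold change of -0.54 (SE 0.19). Aurka, the mitotic kinase, had 0.76 (SE 0.26) at 2.62 to 4.77 CPM in PCB 52 and 0.968 to 3.01 CPM in sham. Lep, the hormone leptin, was at 17 to 343 CPM in PCB 52 and 6.28 to 231 CPM in sham, and Ckm, muscle creatine kinase, at 45.4 to 6341 CPM in PCB 52 and 18.7 to 3858 CPM in sham, ranges that overlap almost wholly.

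**Figure D4:**
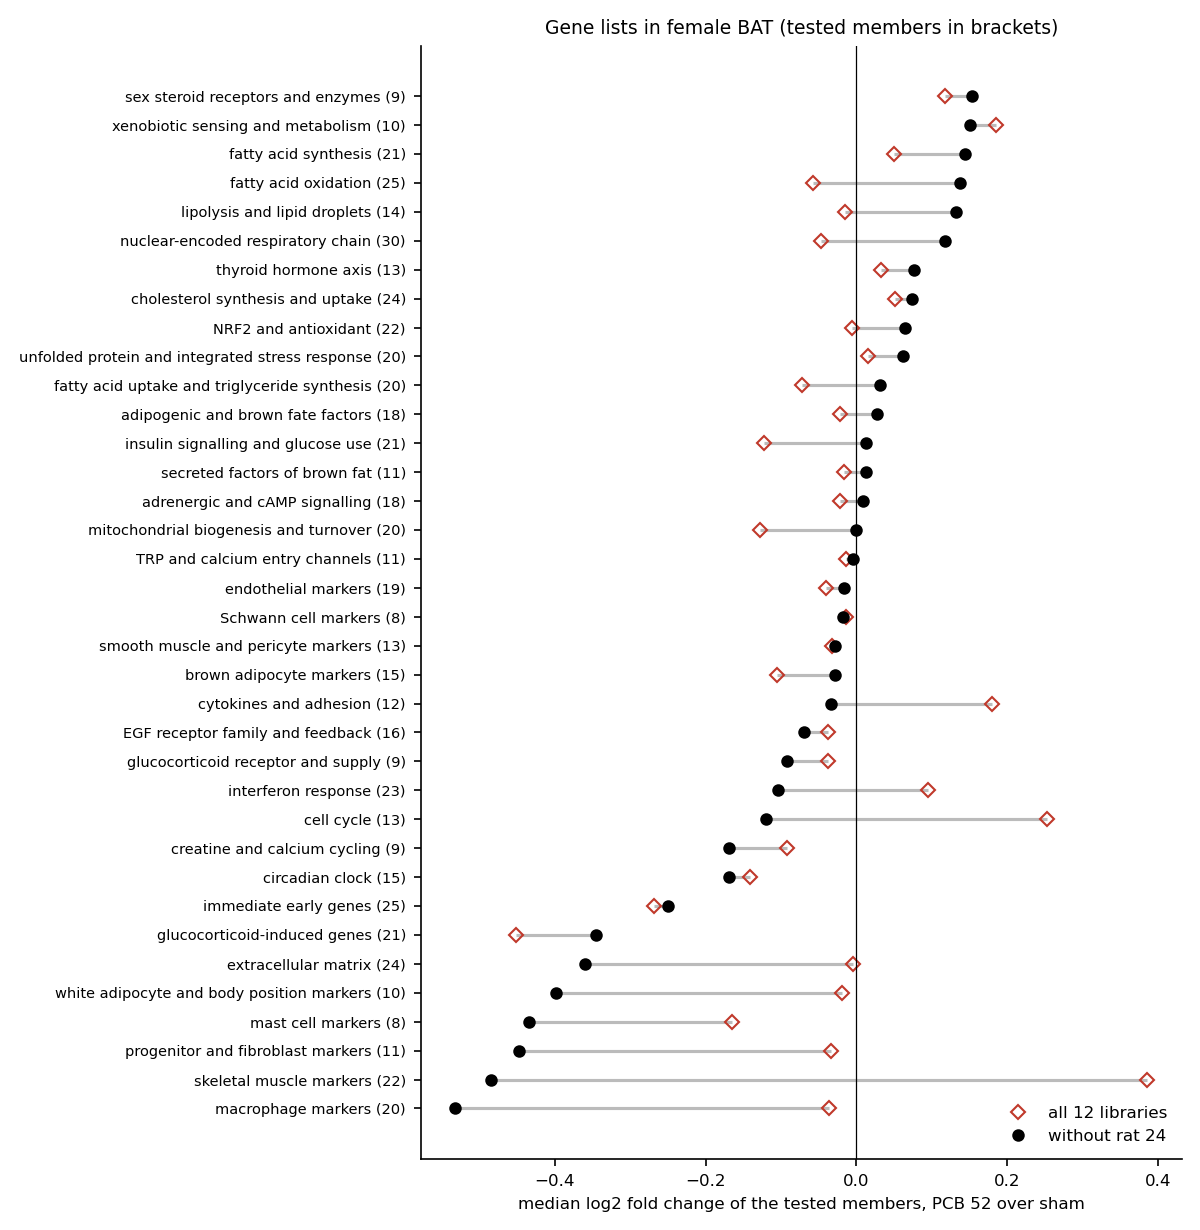
Median log2 fold change, PCB 52 over sham, of the tested members of each list with 8 or more of them, from all 12 libraries (open diamonds) and without rat 24 (filled circles). Glucocorticoid-induced genes lie at -0.45 and -0.35, while muscle, macrophage, matrix and cell cycle lists move with rat 24.

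Genes of the response to foreign compounds had log2 fold changes above 0 for most tested members. Of 10 tested, 8 were above 0 at a median of 0.18, and without rat 24, 9 of 11 at 0.15. The median stayed between 0.08 and 0.26 over the 18 alternative fits. An unadjusted p under 0.05 was reached by 1 member, Ahr, and by 0 without rat 24. List means of log2(CPM + 1) per library, set against the sham mean, overlapped widely. They ran from -0.11 to 0.46 in PCB 52 and from -0.34 to 0.47 in sham. Ahr, the aryl hydrocarbon receptor, ran from 13.2 to 19.5 CPM (median 15.1) in PCB 52 and from 8.82 to 17.2 CPM (median 12.0) in sham, with a log2 difference of 0.36 (SE 0.16), and 0.29 (SE 0.16) without rat 24. Cyp1a1, its best known target, was too low to test, at 0 to 0.206 CPM in PCB 52 and 0 to 0.320 CPM in sham, which is under the level of 3 counts in every library. Cyp1b1, another target, had a log2 fold change of -0.43 (SE 0.39), or -0.17 without sham rat 4. Cyp2b1, a target of the receptor CAR with a near-identical neighbour, Cyp2b2, was at 0 to 3.46 CPM in PCB 52 and 0 to 2.08 CPM in sham and was not tested.

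Esr1, the estrogen receptor alpha, was the sex steroid gene with a p under 0.05 among 9 tested. It ran from 2.78 to 30.0 CPM (median 18.8) in PCB 52 and from 3.35 to 12.6 CPM (median 6.90) in sham, with a log2 difference of 1.27 (SE 0.50), and 1.04 (SE 0.51) without rat 24, its highest library. Of the PCB 52 libraries 4 exceeded all sham libraries and rat 20 lay below them all. Egf, a ligand of the EGF receptor, had 0.49 (SE 0.18), the only member of its receptor family list besides Errfi1 with a p under 0.05.

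The PCB 52 difference of female BAT was then set against that of male BAT, which has its own 12 rats, with a test of the sex by PCB 52 interaction. The males were randomised at 39 days of age and the females at 42, so sex and starting age cannot be told apart here. Of 11032 genes 266 had an unadjusted p under 0.05 (2.41%) and 0 passed adjustment (edgeR, and DESeq2 with 285 unadjusted). Of 21 glucocorticoid-induced genes 4 had such a p, all lower in females. The list was already known to be lower in these female libraries, so this count is not independent evidence of a sex difference. Tsc22d3 had a log2 fold change of -0.76 in female BAT and 0.11 in male BAT, a difference of -0.85 (SE 0.29) in the joint fit. Fkbp5 had -1.12 in female BAT and 0.56 in male BAT (difference -1.66, SE 0.59), and Zbtb16 had -1.26 in females and 0.64 in males (difference -1.88, SE 0.69). The female values of Fkbp5 and Zbtb16 rest in part on sham rat 4, without which they were -0.68 and -0.77. Errfi1 had -1.27 in female BAT and -0.30 in male BAT (difference -0.96, SE 0.41). None of these differences passed adjustment. The list median was -0.45 in female BAT and -0.11 in male BAT, where 14 of 21 members were below 0. The share of all genes below 0 in male BAT was not counted.

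Some other genes had log2 fold changes of the same sign in both sexes, and the share of all genes that did so was not counted. Klf2 had a log2 fold change of -0.53 in female BAT and -0.73 in male BAT (SE 0.20 and 0.13), and Dusp1 had -0.78 in females and -0.67 in males. Atf4 had -0.43 in females and -0.41 in males, Ppargc1a -1.18 in females and -1.25 in males, and Plekhf1 -0.43 in females and -0.40 in males. Among higher genes, Nsdhl had 0.31 in female BAT and 0.29 in male BAT, and Tyms 0.25 in females and 0.29 in males. Slc33a1, the acetyl-CoA transporter of the endoplasmic reticulum, and Tex10, a ribosome biogenesis factor, led the interaction among genes lower in females, with -0.22 and -0.14 in female BAT against 0.32 and 0.39 in male BAT (differences -0.52, SE 0.13, and -0.52, SE 0.14).

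**Figure D5:**
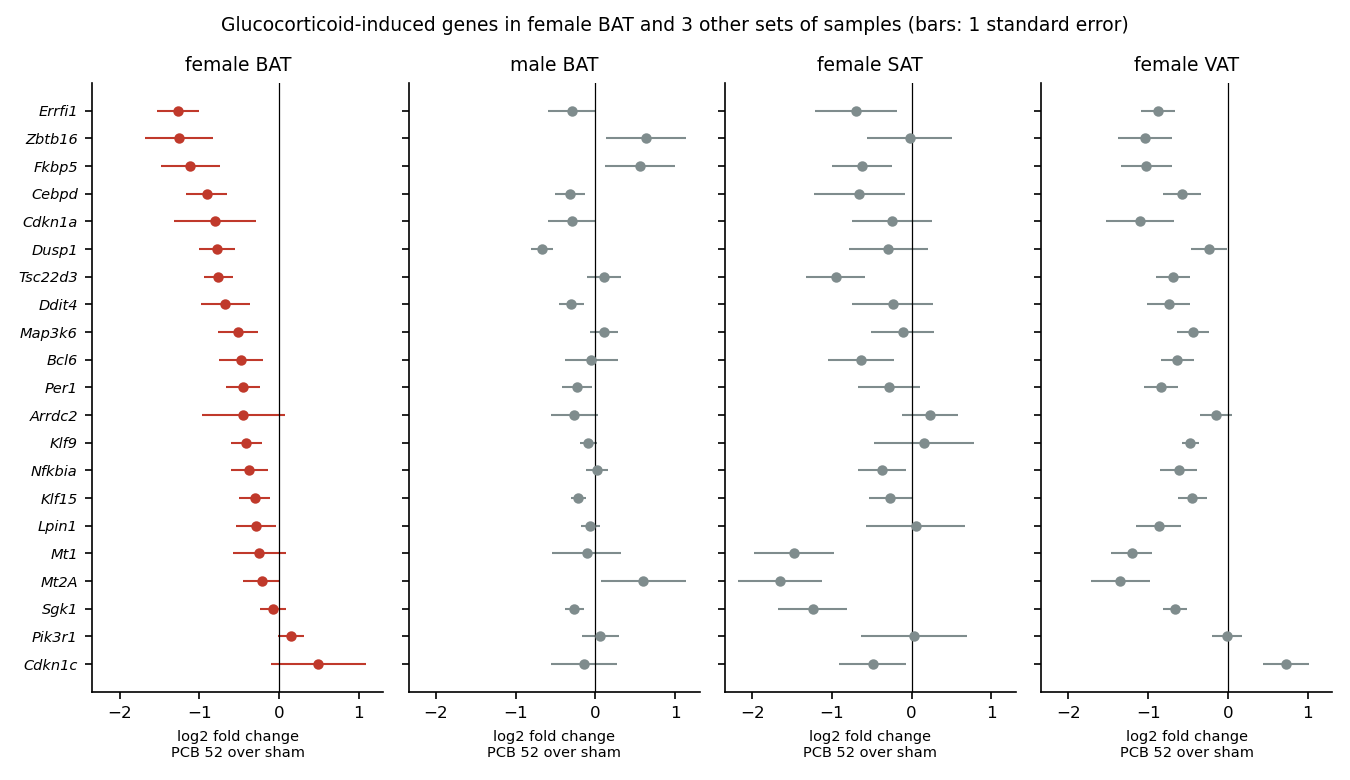
Log2 fold change, PCB 52 over sham, with bars of 1 standard error, of the 21 glucocorticoid-induced genes tested in female BAT, ordered by their value there, beside the same genes in male BAT, female SAT and female VAT. In female BAT 19 of 21 lie below 0, and Fkbp5 and Zbtb16 lie above 0 in male BAT.

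Subcutaneous (SAT) and visceral (VAT) fat of the females carry the same rat numbers, so these depots are read as further tissue of the same animals rather than of new ones. The difference between the PCB 52 effects in BAT and SAT had an unadjusted p under 0.05 for 603 of 12078 genes (4.99%) and an adjusted one for 0. Between BAT and VAT it had 397 of 11541 (3.44%) and 0 with edgeR, and 6 after adjustment with DESeq2. With rat number as a replicate block, 115 genes for SAT and 433 for VAT had an unadjusted p under 0.05, and 0 passed adjustment. The SAT count was 182 without the sham SAT library of rat 8, an omission chosen after the data were seen. That library, of 5 in SAT sham, had 11108 genes with a count, against 13389 to 13586 in the others. Every SAT fold change and SAT difference of a gene or list given here includes it. Of glucocorticoid-induced genes 21 of 22 were below 0 in VAT at a median of -0.67, and 18 of 22 in SAT at -0.33. The share of all genes below 0 was not counted in SAT or VAT, so these list counts stand without a background. Fkbp5 had a log2 fold change of -1.12 in BAT, -0.62 in SAT and -1.02 in VAT, and Tsc22d3 had -0.76 in BAT, -0.95 in SAT and -0.69 in VAT. The metallothionein genes Mt1 and Mt2A, which bind zinc and copper, had -0.25 and -0.22 in BAT against -1.20 and -1.35 in VAT, with an unadjusted interaction p under 0.05 for both (differences of 0.97, SE 0.45, and 1.15, SE 0.46).

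Some genes differed in their PCB 52 effect between BAT and the other depots at the unadjusted threshold. Trpv4, Ednrb, Hmox1 and Eif4ebp3 had been named for their values in these same BAT libraries. Their differences from SAT and VAT are therefore not independent evidence of an effect particular to BAT. Trpv4 had -0.95 in BAT, -0.14 in SAT and -0.22 in VAT, with differences of -0.80 (SE 0.36) from SAT and -0.71 (SE 0.30) from VAT. Ednrb had -1.26 in BAT, 0.33 in SAT and -0.32 in VAT, with differences of -1.56 (SE 0.60) from SAT and -0.92 (SE 0.40) from VAT. Hmox1 had -1.55 in BAT, -0.42 in SAT and -0.37 in VAT, with differences of -1.12 (SE 0.50) and -1.17 (SE 0.51), where the BAT value was -0.97 without sham rat 12. Eif4ebp3 had -0.74 in BAT, -0.06 in SAT and -0.08 in VAT, with differences of -0.67 (SE 0.28) and -0.64 (SE 0.22). Dcp2, the mRNA decapping enzyme, had 0.78 in BAT and -0.52 in VAT (difference 1.32, SE 0.32), and Snai1, a repressor of epithelial genes, -0.60 in BAT and 0.18 in VAT (difference -0.76, SE 0.23). Spink8, a protease inhibitor gene, had 0.48 in BAT and -2.20 in SAT (difference 2.69, SE 0.70). None of these passed adjustment with edgeR. Tissue markers also differed between BAT and VAT in their PCB 52 effect. Such an unadjusted p was reached by 11 of 22 muscle markers and 6 of 15 brown adipocyte markers. All were higher in BAT minus VAT, against 3.44% of all genes in either direction. In VAT alone 5 of 5 tested muscle markers and 8 of 8 brown markers were below 0, at medians of -1.61 and -0.65. The part of tissue content in the depot differences was not tested.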

How the data were processed

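RNA sequencing counts per gene from 12 female BAT libraries were analysed, with male BAT and female SAT and VAT for the comparisons between sexes and depots. The deposited tables hold raw counts per NCBI gene number for BAT and SAT and estimated counts for female VAT, which were whole numbers as deposited. The submitters' processing notes name FastQC, HISAT2 and the rn6 build, with no versions. The counting program, its use of strand and the choice between poly(A) capture and rRNA removal were left unstated. A lack of strand in the counting would merge overlapping antisense genes. The expected counts of the deposited female VAT table ended in 5 summary lines that were left out. Of 15319 gene IDs 15230 were matched to symbols.

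Genes were filtered with edgeR's filterByExpr, scaled with TMM and tested with edgeR 4.0.16 (quasi-likelihood, R 4.3.3), with Benjamini-Hochberg adjustment over all genes tested. CPM values are TMM-scaled. Alternatives were the DESeq2 1.42.0 test, its size factors, no filter, limma 3.58.1 voom with quality weights, a muscle score as covariate, both sexes in 1 fit, and each of the 12 rats left out in turn. The level of 3 counts covers counting error only, while standard errors are those of the fits over rats. Promoters came from RefSeq (GRCr8).

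The members, lists and named genes were chosen with earlier results of these data known. Named genes were the 8 with the smallest p in each direction, up to 5 per direction without overlap, 3 per list, a fixed set of 19, and 3 per direction for each interaction, not all of which are printed, and 2 of which are not reported here. Named after their values were seen were 9 genes: Dusp1, Fosl2, Gadd45b, Zfp423, Zbtb16, Ddit4, Zfp36, Mt1 and Mt2A. Replicate libraries within a group differed by more than counting noise. Female depots of the same rat number were read as tissue of 1 rat, from the titles alone, so the rat number was a replicate block in an alternative fit of the depot differences. Same-numbered deviations from the group means correlated at a median of -0.19 for BAT with SAT and 0.14 for BAT with VAT.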

Additional observations from a re-analysis of the deposited data

Results flagged for a closer look

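Within each group of 6, a library far from the other 5 was marked by Dixon's gap criterion at the 95% level, which chance alone meets in about 1 of 20 groups. Of 182 groups examined, 22 had such a library, and in 13 of these it was rat 24 of PCB 52.

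In rat 24, brown adipocyte markers summed to 635 CPM, against 10822 to 16727 in the other PCB 52 libraries, and red cell markers to 54.9 CPM, against 119 to 142. Macrophage markers summed to 3873 CPM, against 873 to 1385, and progenitor and fibroblast markers to 12136 CPM, against 3905 to 6706. T and NK cell markers summed to 190.7 CPM, mast cell markers to 228 CPM and epithelial markers to 6.60 CPM, each above the other 5. Among genes, rat 24 was low in Cpt1b (134 CPM, against 1240 or more), Pparg (179 CPM, against 288 or more) and Thrsp (2860 CPM, against 7226 or more). It was high in Lep (343 CPM, against at most 118), C1qb (316 CPM, against at most 115) and Cyp1b1 (14.9 CPM, against at most 9.16).

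The other marked libraries were spread over 6 rats. In sham, rat 4 was high in Fkbp5 (207 CPM, against at most 94.6) and Zbtb16 (110.2 CPM, against at most 47.9). Sham rat 10 was high in Klf2 (156 CPM), rat 12 in Hmox1 (533 CPM) and rat 2 in Dgat2 (1855 CPM). Sham rat 6 was low in Herc2 (80.4 CPM) and in the endothelial marker sum (955 CPM) and high in Ccn2 (57.4 CPM). In PCB 52, rat 16 was low in Mt2A (12.5 CPM, against 17.8 or more).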

How the results depend on the processing

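The count of 0 genes at an adjusted p under 0.05 in female BAT held in each of the 18 alternatives, which comprised DESeq2, its size factors, limma voom, no filter, a muscle score covariate, both sexes in 1 fit and each rat left out. At an unadjusted p under 0.05 the count of 388 became 652 with limma voom and ran from 249 (without PCB 52 rat 22) to 592 (without PCB 52 rat 24) with 1 rat left out. The number of genes without overlap, 20, ran from 28 to 63 with 1 rat left out, since smaller groups separate more easily. The BAT against VAT difference had 6 genes after adjustment with DESeq2 and 0 with edgeR. With rat number as a replicate block, the BAT against SAT and BAT against VAT differences had 0 genes after adjustment, and 115 and 433 unadjusted. Leaving out the SAT sham library of rat 8, an alternative chosen after seeing the data, left 182 unadjusted of 603, and 316 when BAT rat 24 was also left out.

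Of 76 named genes tested, 71 kept their direction in all 18 alternatives. Ckm turned to -1.40 with limma voom and -0.025 with the muscle covariate, and ran from -0.54 to 0.58 with 1 rat left out. Under the same omissions Cpt1b ran from -0.22 to 0.13, Lep from -0.42 to 0.75, Thrsp from -0.039 to 0.19 and Mt1 from -0.48 to 0.0031. The cause was not tested. List medians kept their sign in every alternative for 10 of 39 lists, the glucocorticoid-induced, immediate early, clock, cholesterol and xenobiotic lists among them. Library totals set the level of 3 counts at 0.421 to 0.610 CPM, below which a gene cannot be told from 0.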
